A study of Drosophila melanogaster with 96 samples.

Results

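The 24 h rhythms of gene expression were compared between the heads of female and male control flies (Drosophila melanogaster) kept in constant darkness. The comparison used the 24 female and 24 male control libraries, 48 of the 96 libraries of the series, and every gene that passed a filter on low values, 10568 of 17698 deposited genes. The other 48 libraries came from female and male flies with RNAi against Achl, a gene whose mRNA cycles in fly heads. They entered the fit, and the same comparison between their sexes is given beside a part of the genes named here. For each gene, log2(TPM + 1) in each sex was described by its mean and by cosine and sine coefficients with a 24 h period, and the test asked whether the cosine and sine coefficients differed between the sexes. It therefore concerned the size and the timing of the rhythm and not the mean level.

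Flies of both genotypes and sexes were adults 3 to 5 days old, held at 25 degrees on standard food in cycles of 12 h of light and 12 h of dark. They were moved to constant darkness 24 h before collection began. Collections ran every 2 h, starting at circadian time (CT) 24 and ending at CT70, with 1 library per genotype and sex at each, made from a pool of 7 to 8 dissected heads and 200 ng of total RNA. The labels name one genotype only as a control and the other as Achl RNAi. The construct that the controls carried, the strain and the driver of the RNAi are not described there, so what the controls share with the RNAi flies is not known. Time points had no replicate libraries, so p-values here reflect only how far libraries scatter around a fitted course, which may be technical in part.

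In the fly clock, the proteins CLK and CYC activate per and tim, whose products enter the nucleus and repress their own transcription. A second loop of vri and Pdp1 acts on Clk, so that Clk mRNA peaks about opposite to per and tim. Such clocks run in the photoreceptors, glia, fat body and a small set of neurons of the head, and a whole head sums all of them. In such bulk samples, fewer cells of a type and less RNA per cell cannot be told apart.

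The tissue label was checked against marker genes. Median ninaE, the opsin of the outer photoreceptors, was 34266 TPM in females and 26419 TPM in males, and the neuronal elav and glial repo were detected in every library. Of the markers of other organs, nos, osk and bam had a median of 0 TPM in both sexes, and Mst84Da and Acp26Aa were at 0 in every control library. The medians in females and males were 0.175 and 0.19 TPM for vas and 0.04 and 0.05 TPM for Acp36DE. Mst87F had medians of 0.13 and 0.25 TPM and reached 11.1 TPM in a male control library. The summed male reproductive list reached 32.15 TPM in a male control library, against a male median of 0.425 TPM. The summed ovary list of 16 genes had medians of 201 TPM in females and 280 TPM in males. Of its genes, 3 had a median of 1 TPM or more over the control libraries. Yp1, a yolk protein gene of the female fat body, had a median of 18120 TPM in females and 0.085 TPM in males. Female libraries stood apart by mt:lrRNA, a mitochondrial ribosomal RNA. It was below 50000 TPM in 14 female control libraries, namely all 12 of day 2 (CT48 to CT70) and those of CT32 and CT40, and in 0 male control libraries. Its median was 27652 TPM in females and 117697 TPM in males. Low mt:lrRNA and day 2 therefore nearly coincide in females. Results are given with both days, for each day alone and with mt:lrRNA handled in other ways where that changed a call.

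Few sex differences of rhythm were detected, and 1 gene passed the test. With limma, the rhythm of rost differed between the sexes at an adjusted p of 0.0336. This is 0.00946% of the tested genes, and 285 genes (2.7%) had an unadjusted p under 0.05. Amplitude alone differed in 0 genes after adjustment among the 226 with a called rhythm in either sex, with 50 of them at an unadjusted p under 0.05. Peak time alone differed in 0 of the 76 genes with a called rhythm in both sexes, with 10 of them at an unadjusted p under 0.05. Both adjustments counted all 10568 tested genes as tests, which is stricter than counting only the 226 or the 76. The unadjusted p in the test of peak time was 0.000211 for CG14329, 0.000399 for CG18673 and 0.00041 for CG42329. An adjustment over the 76 alone was not run, so the count of 0 for peak time is tied to this choice. A rhythm was called in 169 genes in females (1.6% of tested genes) and in 133 genes in males (1.26%). The 76 shared genes were 45.0% of those called in females and 57.1% of those called in males.

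Among the 76 shared genes the peaks fell close together. Female and male peaks lay less than 1 h apart in 42 genes, less than 2 h apart in 65 and less than 4 h apart in 75. The median difference (female minus male) was 0.517 h, with quartiles of -0.284 and 1.41 h. The female peak was the later one in 52 genes and the earlier one in 24. These differences are small beside their errors, since the 95% interval of a gene's peak difference reached 2.08 h to each side at the median gene. Over the same 76 genes, the median difference was 0.668 h on day 1, with 53 later in females, and 0.326 h on day 2, with 45 later. Over genes called in both sexes within a day it was 0.353 h on day 1 (33 genes) and -0.103 h on day 2 (44 genes), and a difference between the days was not tested. The median over both days was 0.296 h with TPM rescaled without mitochondrially encoded genes, 0.331 h with the mt:lrRNA covariate and 0.294 h without the female library of CT38, each over the genes then called in both sexes.

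The peak difference was also described by the time of day of the peak. Among the 36 shared genes whose mid-peak between the sexes fell from CT0 to CT6, the female peak was later in 26, with a median difference of 1.20 h. Among the 19 genes from CT18 to CT24 it was later in 16, with a median of 0.666 h. Among the 15 from CT6 to CT12 it was later in 8 (median 0.0818 h), and among the 6 from CT12 to CT18 in 2 (median -0.770 h). These last 3 groups hold under 20 genes each, and the difference between the groups was not tested. The RNAi heads, which are separate libraries, gave values of the same sign. In the 33 genes called in both sexes of both genotypes, the median difference was 0.642 h in controls, with a later female peak in 26, and 0.511 h in RNAi heads, with a later female peak in 24. The low mt:lrRNA of females on day 2 was present in both genotypes. It was at most 34797 TPM in female RNAi libraries of day 2 and at least 92193 TPM in male RNAi libraries. Its part in the peak differences was not tested.

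Peak-to-trough ratios were also close. The ratio was the 24 h peak over the trough of the fitted course, on the TPM + 1 scale, so it understates the change of genes of low level. Its median over the 76 genes was 1.62 in females and 1.67 in males, against 1.13 and 1.10 over all tested genes, and it was larger in females in 36 genes and in males in 40. The female ratio divided by the male ratio had a median of 0.990 and ran from 0.583 for Achl to 1.41 for GstZ2. At the median gene, the 95% interval of that quotient spanned a factor of 1.29 to each side, so smaller differences of amplitude could not have been seen. This interval is for a single gene without adjustment. Differences well above that factor could therefore also fail the adjusted test.

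**Figure D1:**
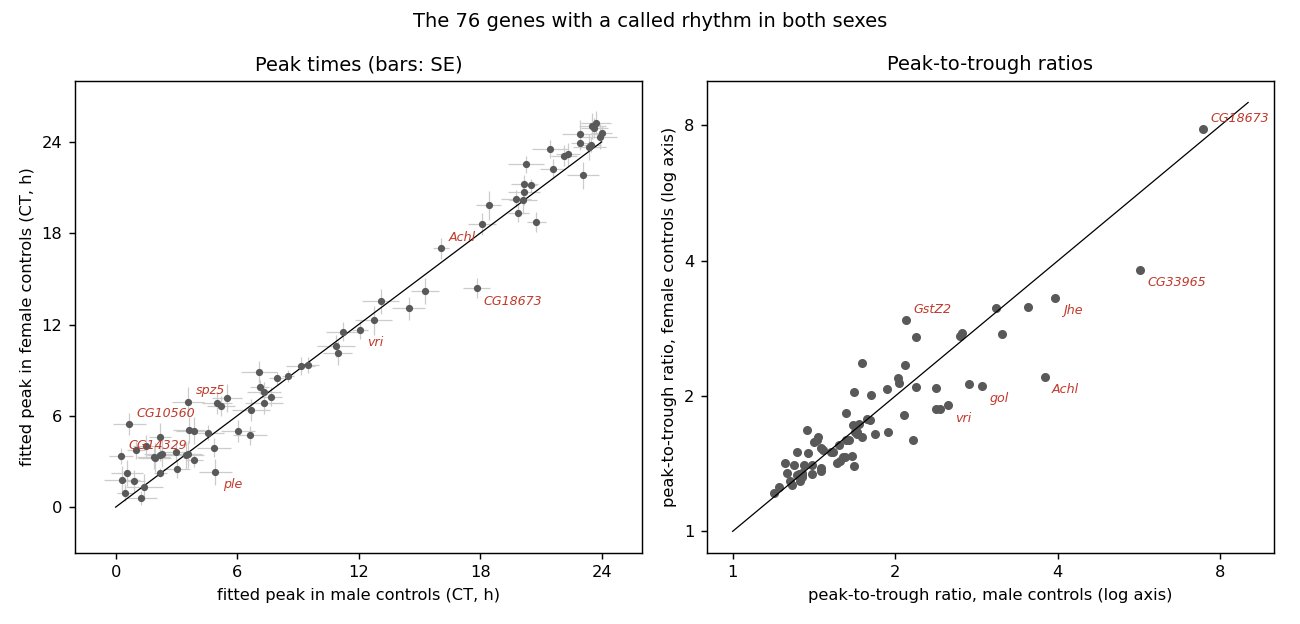
Fitted peak times (left, CT in h, bars are SE) and peak-to-trough ratios (right, log axes) of the 76 genes with a called rhythm in both sexes, with male controls on the x axes and female controls on the y axes and 1 point per gene. Points lie along the line of equality, 42 of them within 1 h of it in peak time, and CG10560 and CG18673 lie farthest from it, at 4.78 and -3.45 h.

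Of the 17 core clock genes, all tested, a rhythm was called in 3 in females, vri, Pdp1 and Clk. In males it was called in 5, the same 3, tim and per. The shares over all tested genes were 1.6% in females and 1.26% in males. None of the 17 differed between the sexes after adjustment, and tim alone had an unadjusted p under 0.05, beside 2.7% of all tested genes. The genes of the second loop passed the rhythm test in both sexes. In females vri, a repressor of Clk, ran from 32.2 TPM (at CT24) through a median of 55.0 to 75.8 TPM (at CT34). In males it ran from 19.8 TPM (at CT24) through 56.9 to 86.6 TPM (at CT36). Both sexes had their lowest vri value at CT24 and overlapped over most of their range. Its fitted peak was CT11.6 in females and CT12.0 in males, a difference of -0.414 h (95% interval -1.79 to 0.962 h). The vri ratio was 1.91 in females and 2.50 in males, and their quotient of 0.763 had an interval of 0.583 to 0.998 that ends just below equality. In RNAi heads the vri ratios were 2.28 and 2.45, with peaks at CT12.8 and CT12.3 (unadjusted p = 0.614).

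Pdp1, the activator of the second loop, had a ratio of 1.50 in females and 1.52 in males, with peaks at CT12.3 and CT12.7 (difference -0.460 h, interval -3.06 to 2.14 h). Clk, the target of this loop, lay between 17.3 and 37.8 TPM in females and between 19.7 and 43.1 TPM in males, highest at CT24 in each. It peaked at CT23.2 in females and CT22.3 in males (difference 0.856 h, interval -1.08 to 2.79 h), and its ratio was 1.43 and 1.58. Clk was thus opposite to vri and Pdp1 in both sexes. In RNAi heads the unadjusted p of the difference was 0.436 for Pdp1 and 0.303 for Clk. For these 3 genes the ratio was larger in males, while only the quotient for vri had an interval that left out equality.

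The genes of the negative limb, tim and per, passed the rhythm test in males alone. In females tim ran from 172 TPM (at CT28) through a median of 285 to 351 TPM (at CT60), and in males from 138 TPM (at CT26) through 271 to 373 TPM (at CT40). Males reached lower and higher than females, with broad overlap. The ratio was 1.40 in females (rhythm adjusted p = 0.0637) and 1.79 in males (adjusted p = 8.93e-06), and the peak was CT12.9 and CT14.8. The female peak was 1.99 h earlier in the fit, with an interval of -4.28 to 0.301 h. The quotient of ratios was 0.780 (interval 0.610 to 0.998). The test of the difference gave tim an unadjusted p of 0.0290 and an adjusted p of 1. By day, its unadjusted p was 0.000331 on day 1, when the ratios were 1.47 and 2.35, and 0.352 on day 2. The adjusted p of tim was 0.551 on day 1 and 0.671 on day 2. In RNAi heads the tim ratios were 1.55 in females and 2.02 in males, with an unadjusted p of 0.0760.

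For per the sexes had nearly the same course at about 9 TPM in the median library. Values lay between 3.70 and 13.8 TPM in females and between 4.15 and 15.4 TPM in males, lowest at CT24 in both. The ratio was 1.55 in females (adjusted p = 0.136) and 1.92 in males (adjusted p = 0.00175), and the peaks, CT10.3 and CT10.4, differed by -0.131 h (interval -2.77 to 2.50 h). Although per passed the rhythm test in males alone, the test of the difference gave it an unadjusted p of 0.488, and in RNAi heads 0.515. The blue-light receptor gene cry (ratios 1.45 and 1.53) and the repressor gene cwo (1.37 and 1.44) passed in neither sex. No rhythm was called in either sex for cyc, whose mRNA is known to be steady, with ratios of 1.09 and 1.11.

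**Figure D2:**
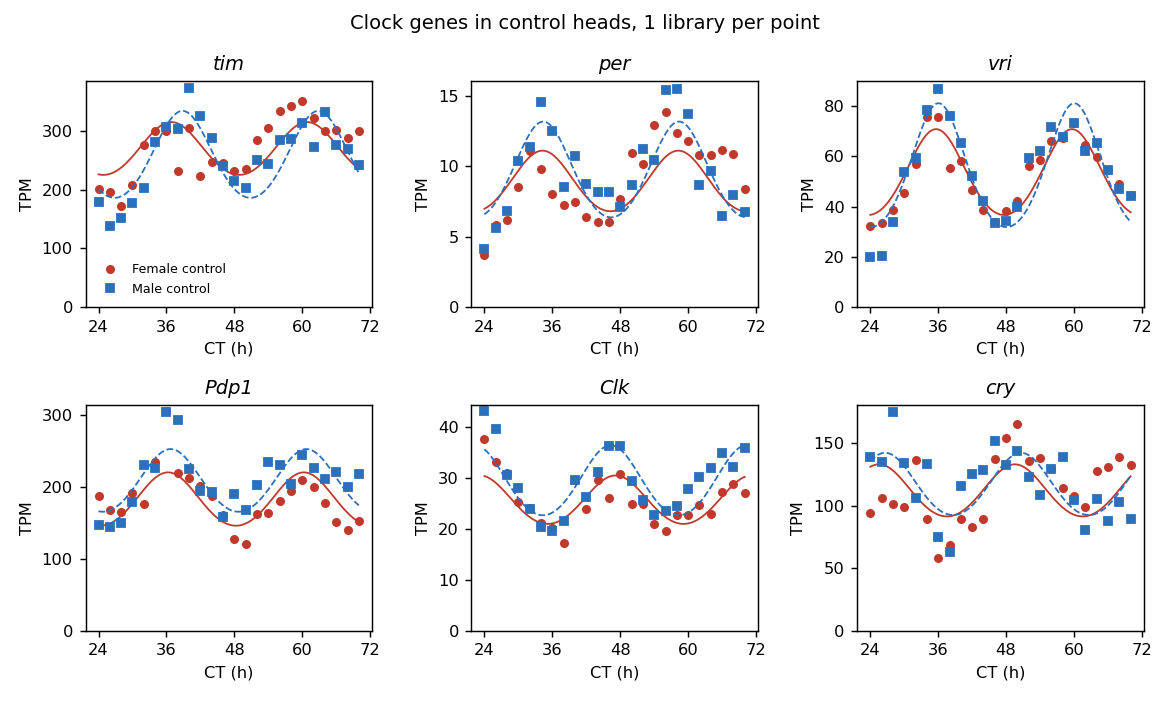
TPM of tim, per, vri, Pdp1, Clk and cry against CT (h) in the 24 female and the 24 male control libraries, 1 point per library, with the fitted 24 h course of each sex as a line. The courses of vri, Pdp1, Clk and per rise and fall together in the sexes, and that of tim is shallower in females, with a ratio of 1.40 against 1.79.

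In a list of clock outputs of fly heads, which was chosen for known cycling, a rhythm was called in both sexes or in neither. Of its 27 tested genes, 13 were called in females and the same 13 in males, beside 1.6% and 1.26% of all tested genes. None of the 27 differed between the sexes after adjustment and 1, Achl, had an unadjusted p under 0.05, beside 2.7% of all tested genes. Ugt35b, a UDP-glycosyltransferase gene, peaked 0.0321 h apart in the sexes, with ratios of 2.35 and 2.09. The feeding and courtship gene to (takeout) peaked 0.470 h later in females, with ratios of 1.87 and 2.42. Usp8, a deubiquitinase gene, had ratios of 2.74 and 3.16 and peaks at CT8.47 and CT7.95. Slob, which encodes a potassium channel binding protein, had ratios of 1.62 and 1.74 and peaks at CT7.27 and CT7.67.

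Some outputs differed widely in level between the sexes. Cyp4d21, a cytochrome P450 gene of the fat body with a known male bias, had a median of 25.6 TPM in females and 510 TPM in males. Its ratio was 2.71 in females and 2.18 in males, and its peaks were CT20.3 and CT19.8 (difference 0.501 h, interval -1.32 to 2.32 h). Jhe, the gene of juvenile hormone esterase, had medians of 3.06 and 7.38 TPM, ratios of 3.31 and 3.96 and peaks at CT3.13 and CT3.89. The photoreceptor dehydrogenase gene Pdh had a larger ratio in females, 1.68 against 1.37 (unadjusted p of the amplitude difference 0.0322).

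In RNAi heads, a part of the shared genes had a low p for the sex difference of the rhythm. Of the 76 genes, 26 had an unadjusted p under 0.05 there, beside 4.83% of all tested genes, and 1 of them, gol, was called (0.00946% of tested genes). Among the outputs the unadjusted p in RNAi heads was 0.0261 for to, 0.00298 for Usp8, 0.00117 for Cyp4d21, 0.00773 for Jhe and 0.00181 for Pdh. Usp8 peaked there at CT11.9 in females and CT9.80 in males, and Cyp4d21 at CT21.5 and CT19.0. Whether these sex differences differed between the genotypes was not tested.

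Achl had the lowest quotient of ratios among the 76 shared genes. It ran from 29.4 TPM (at CT30) through a median of 69.5 to 105 TPM (at CT40) in female controls, and from 16.6 TPM (at CT32) through 74.8 to 144 TPM (at CT60) in males. Female values lay within the range of the male values. The ratio was 2.20 in females and 3.78 in males, a quotient of 0.583 (interval 0.393 to 0.866), and the peaks were CT17.0 and CT16.1. Its unadjusted p was 0.0143 for the rhythm and 0.00816 for amplitude, with an adjusted p of 1 for each. The unadjusted p was 0.107 on day 1 and 3.59e-05 on day 2 (adjusted p = 0.0949 on day 2). RNAi heads, in which Achl is the targeted gene, also had the larger ratio in males (1.47 and 2.29, unadjusted p = 0.00989). The ubiquitin ligase gene gol likewise had a lower ratio in females (2.11 against 2.90, unadjusted p of the amplitude difference 0.00671). In RNAi heads gol was the gene called for a sex difference of rhythm (adjusted p = 0.00189), with ratios of 1.82 and 2.81 and peaks at CT12.3 and CT9.61. The glutathione transferase gene GstZ2 had a higher ratio in females in controls (2.95 against 2.09, unadjusted p of the amplitude difference 0.0406), and its RNAi ratios were 2.45 and 1.67.

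**Figure D3:**
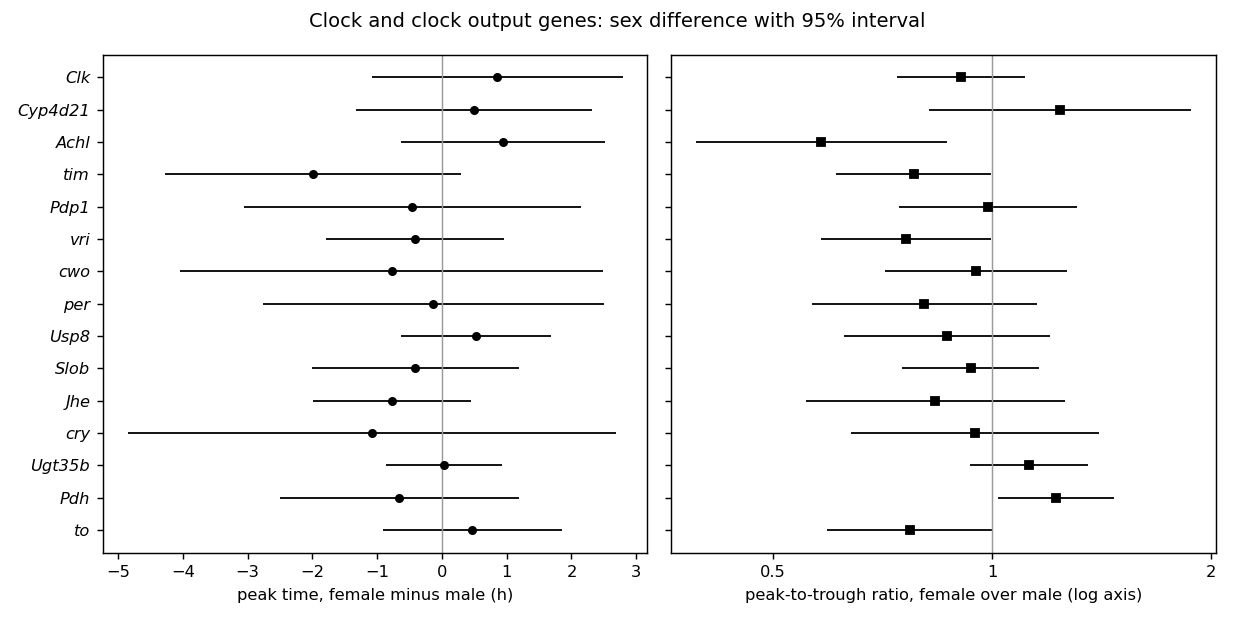
Female minus male peak time (left, h) and female over male peak-to-trough ratio (right, log axis) for 15 clock and clock output genes, each point with its 95% interval. All peak-time intervals shown include 0, the quotients of tim (0.780), vri (0.763) and Achl (0.583) have intervals below 1, and that of Pdh has one above 1. Peak-time intervals of tim, per, cry and cwo are only descriptive, since these genes were not called in both sexes.

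Most genes called in 1 sex alone did not differ detectably between the sexes in the test of the difference. Of the 93 genes called in females only, 50 had an unadjusted rhythm p under 0.05 in males, and 27 had an unadjusted p under 0.05 for the difference between the sexes, with 0 after adjustment. Their median ratio was 1.43 in females and 1.21 in males, and 77 of the 93 peaked within 4 h of each other in the sexes. Of the 57 called in males only, 37 had an unadjusted rhythm p under 0.05 in females, 15 had one under 0.05 for the difference and 1, rost, remained after adjustment. Their median ratio was 1.28 in females and 1.52 in males, and 47 of 57 peaked within 4 h. All 93 and all 57 had the larger ratio in the sex in which they were called, which the choice of the genes fixes.

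Some of these genes had courses that were steep in 1 sex and nearly flat in the other, short of the adjusted threshold. TpnC4, a troponin C gene of muscle, lay between 0 and 2.09 TPM in females and between 0 and 12.3 TPM (at CT34) in males, with medians of 0.655 and 1.03 TPM. Its ratio was 1.15 in females and 3.53 in males (adjusted p of the difference 0.355), and the marker genes of muscle as a whole had summed ratios of 1.13 and 1.06. TpnC4 overlaps CG30438 on the other strand, which had a median of 26.2 TPM. The libraries were stranded, but how strand was used in counting is not given in the sources used here. Whether the TpnC4 values include reads of CG30438 is therefore not known. CG33970, which also overlaps genes on the other strand, had a ratio of 1.04 in females and 1.36 in males, at medians of 118 and 164 TPM (adjusted p = 0.465). In the other direction, CG31673 had ratios of 1.46 and 1.05 at medians of 65.7 and 70.9 TPM (adjusted p = 0.628). CG10357 had ratios of 2.04 and 1.09 (adjusted p = 0.693), and pirk, an inhibitor of the Imd immune pathway, had 2.55 and 1.40 (adjusted p = 1). Its highest female value, 19.8 TPM, came from the library of CT56, in which the summed Imd genes were at 15327 TPM against a median of 556 TPM. Without that library the female pirk ratio was 2.37 and the unadjusted p of the difference was 0.0847. hll had ratios of 7.23 and 1.30 at medians of 2.73 and 0.240 TPM, with an interval of 2.15 to 14.4 for their quotient.

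**Figure D4:**
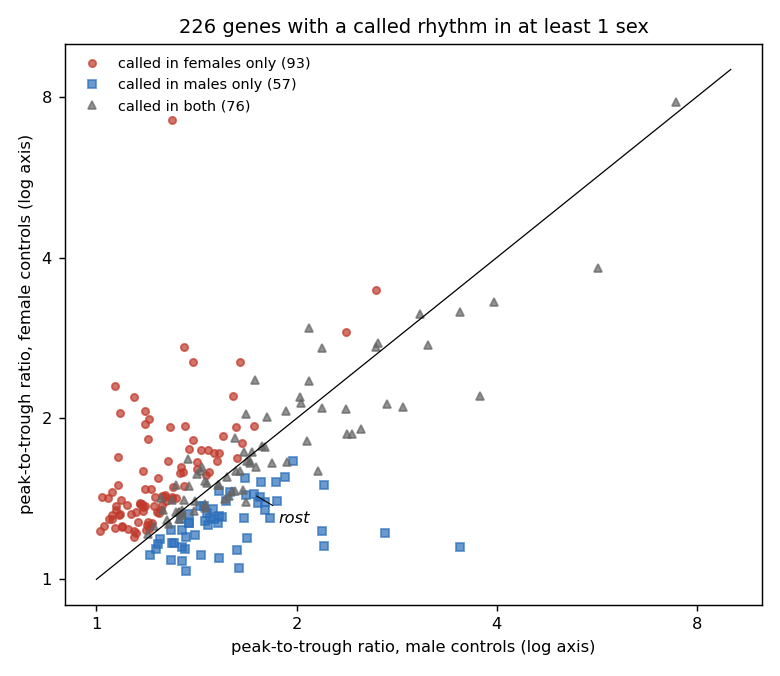
Peak-to-trough ratio in female controls (y) against male controls (x), both log axes, for the 226 genes with a called rhythm in at least 1 sex, marked by whether the call was made in females only (93), males only (57) or both (76). Genes called in 1 sex lie on that side of the line of equality by the way they were chosen, and most lie near it.

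rost, the gene that passed, encodes a membrane protein known for its part in the fusion of embryonic myoblasts. It is gene FBgn0011705, on the minus strand of chromosome 2L from 8985936 to 8989539 (dm6 coordinates, protein coding). Its TPM ran from 162 (at CT68) through a median of 212 to 283 (at CT36) in females, and from 15.8 (at CT46) through 20.2 to 49.7 (at CT24) in males. Female and male values did not overlap, so the sexes also differed widely in level, which is not what was tested. On day 1, female values were 188 TPM at CT24, 283 at CT36 and 180 at CT46, and male values were 49.7, 22.7 and 15.8 TPM at those times. On day 2, female values were 182 TPM at CT48, 274 at CT60 and 162 at CT68, and male values were 29.8, 17.5 and 20.5 TPM.

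Female rost was highest at CT36 on day 1 and at CT60 on day 2. Male rost was highest at CT24 on day 1 and at CT52 (35.3 TPM) on day 2, and had fallen from these values by CT36 and CT60. The fitted peak was CT9.82 (SE 1.06 h) in females and CT2.01 (SE 0.717 h) in males, 7.81 h apart (interval 5.26 to 10.4 h). The ratio was 1.44 in females (rhythm adjusted p = 0.107) and 1.72 in males (adjusted p = 0.00104). As no rhythm was called in females, rost was outside the test of peak time, and its peak interval is only descriptive. Amplitude itself was not distinguished (quotient 0.838, interval 0.629 to 1.12). The difference had an unadjusted p of 3.18e-06. Each day alone gave almost the same peaks, CT9.89 and CT2.08 on day 1 (unadjusted p = 0.0248) and CT9.77 and CT1.95 on day 2 (unadjusted p = 1.61e-05). The adjusted p of rost was 0.974 on day 1 and 0.0852 on day 2. Each day is a part of the libraries by which rost was chosen, so the days are not a separate repeat. In the RNAi heads the peaks were CT12.9 and CT2.68 (ratios 1.14 and 1.42, unadjusted p = 0.00689). The rost difference did not pass adjustment there. Over all tested genes, 510 had an unadjusted p under 0.05 in RNAi heads.

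The call for rost ended under changes of scaling, filter or libraries, for example without a filter on low values (adjusted p = 0.0549). It ended when TPM were rescaled without the mitochondrially encoded genes (adjusted p = 0.286), when libraries were centred on their medians (0.106) and when the 2 female day 1 libraries of low mt:lrRNA were left out (0.0719). With mt:lrRNA as a covariate the adjusted p was 0.0159. The call also ended when any 1 of 16 libraries was left out, 9 female and 7 male. The adjusted p was up to 0.155, without the male library of CT26.

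The other genes of lowest p mostly had shallow courses that peaked at different times in the sexes. Among the 20 genes of lowest p, rost included, 17 had female and male peaks more than 6 h apart, and 9 had a female peak between CT8 and CT14 and a male peak between CT22 and CT4. A rhythm was called in females in 9 of the 20, in males in 7, in both in 3 and in neither in 7. The unadjusted p was under 0.05 on both days in 12. These counts describe genes chosen by this very test. In the RNAi heads, 3 of the 20 (rost, CG10357 and CG14329) had an unadjusted p under 0.05, and in 16 the difference of the coefficients pointed within 90 degrees of that in controls, as it did in 51.7% of all tested genes.

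Fmo-2, a gene of the flavin monooxygenase family, came next. It had medians of 71.3 TPM in females, with a range of 51.7 to 92.4 (highest at CT34), and 39.9 TPM in males, with a range of 28.6 to 59.2 (highest at CT24). Its peaks were CT10.9 and CT1.20, and its ratios 1.27 and 1.52 (adjusted p = 0.0584). In RNAi heads, however, its peaks were CT2.67 and CT3.12 (unadjusted p = 0.954), so the peaks there lay close together. CR44390, a non-coding RNA gene at about 1 TPM, had peaks at CT3.73 and CT15.6 and ratios of 1.43 and 1.25 (adjusted p = 0.0584). It overlaps Dark on the other strand, and how strand was used in counting is not given in the sources used here. Whether the CR44390 values include reads of Dark is therefore not known.

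Other genes of low p did not pass. aralar1, a mitochondrial carrier gene, lay between 73.5 and 149 TPM in females and between 82.8 and 131 TPM in males, and peaked at CT12.2 and CT1.34 (adjusted p = 0.435). mdy, which encodes a diacylglycerol acyltransferase of fat storage, peaked at CT11.8 and CT2.25 (ratios 1.31 and 1.20, adjusted p = 0.693). The gap junction gene ogre peaked at CT10.6 and CT0.798 (ratios 1.14 and 1.14, adjusted p = 0.693), and CG11400 at CT11.0 and CT0.365 (ratios 1.33 and 1.19, adjusted p = 0.461). The small GTPase gene Rgk2 had peaks at CT0.611 and CT15.8 (adjusted p = 0.435). Beside mdy, the summed fat body markers had ratios of 1.26 in females and 1.13 in males, peaking at CT13.2 and CT16.4, and their part in these results was not tested. The mdy and ogre genes overlap genes on the other strand. In RNAi heads the unadjusted p was 0.340 for aralar1, 0.977 for mdy, 0.762 for ogre, 0.365 for CG11400 and 0.0812 for Rgk2.

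**Figure D5:**
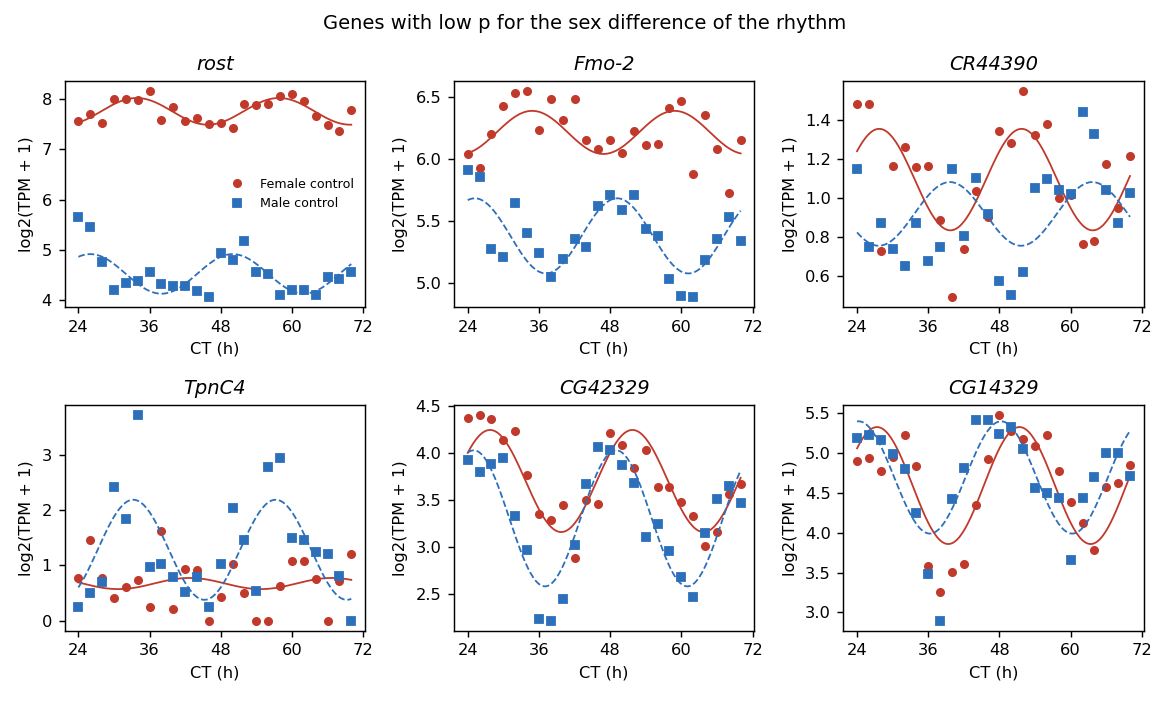
log2(TPM + 1) against CT (h) for rost, Fmo-2, CR44390, TpnC4, CG42329 and CG14329, which are among the genes of lowest p for a sex difference of the rhythm, 1 point per library (24 female and 24 male controls) with the fitted course of each sex as a line. In rost and Fmo-2 the female course is highest at CT9.82 and CT10.9 of the cycle and the male course at CT2.01 and CT1.20.

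Peak time differed most, among genes rhythmic in both sexes, in CG10560. It lay between 66.3 and 131 TPM in females and between 143 and 278 TPM in males, without overlap of the groups. Ratios were 1.52 and 1.47, and peaks were CT5.46 and CT0.678, a delay in females of 4.78 h (interval 2.61 to 6.95 h, adjusted p = 0.349 for peak time). In RNAi heads its peaks were CT2.89 and CT2.36, less than 1 h apart. CG14329 had medians of 27.0 TPM in each sex, ratios of 2.77 and 2.66 and peaks at CT3.36 and CT0.269, 3.10 h apart (interval 1.50 to 4.69 h). There the RNAi heads gave peaks of CT3.35 and CT23.7 (unadjusted p = 0.0131).

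CG42329 peaked 2.74 h later in females (interval 1.26 to 4.23 h), and spz5, which encodes a ligand of the Spätzle family, 3.34 h later (interval 0.874 to 5.81 h). CG31321 and CG16798 peaked 2.52 and 2.41 h later in females. CG18673 and CG42269 went the other way. CG18673 had the steepest rhythm of these, with a ratio of 7.84 in females and 7.44 in males at medians of 10.3 and 1.68 TPM, and peaked at CT14.4 and CT17.8. CG42269 peaked at CT18.7 in females and CT20.8 in males. None of these 8 genes passed the threshold for peak time, with the adjustment over all 10568 tested genes rather than the 76 shared ones. In RNAi heads the unadjusted p of the sex difference was 0.781 for CG42329, 0.220 for spz5, 0.904 for CG31321, 0.215 for CG16798, 0.244 for CG18673 and 0.258 for CG42269.

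Each of the 25 gene lists had 0 members that passed for a sex difference of rhythm, rost being in none of them. The counts below are of members with an unadjusted p under 0.05 for the difference, beside 2.7% of all tested genes. For cells of the eye and brain these were 0 of 30 photoreceptor genes, 1 of 23 neuronal genes and 2 of 17 glial genes (ogre and repo). A rhythm was called in 4 photoreceptor genes in each sex, beside 1.6% of all tested genes in females and 1.26% in males. The 3 shared ones were Pdh, rdgA (a diacylglycerol kinase) and inaC (a protein kinase C of phototransduction). For other tissues the counts for the difference were 2 of 17 fat body genes (mdy and FASN1) and 0 of 9 yolk and female fat body genes. They were 2 of 21 muscle genes, 0 of 13 hemocyte genes and 0 of 4 ovary genes. The 13 genes of the male reproductive list had 0 tested members.

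In hormone and behavioural pathways the counts were 1 of 14 juvenile hormone genes, 1 of 20 insulin, adipokinetic hormone and feeding genes, 2 of 31 neuropeptide genes (CNMa and Lk), 0 of 31 olfactory and gustatory genes and 0 of 17 sex determination and dosage compensation genes. In immunity and stress they were 1 of 26 Imd genes, 0 of 27 Toll genes, 1 of 17 heat shock genes and 1 of 19 glutathione and redox genes. In metabolism they were 4 of 37 detoxification genes (Ugt86Di, Cyp4ac2, Cyp4e3 and Cyp4p1) and 3 of 42 carbohydrate and lipid genes (mdy, UGP and FASN1). They were 0 of 15 cuticle genes, 0 of 15 mitochondrially encoded genes and 0 of 80 cytosolic ribosomal protein genes. Ugt86Di, a UDP-glycosyltransferase gene with medians of 2.47 TPM in females and 6.11 TPM in males, had ratios of 1.20 and 1.69.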

How the data were processed

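Stranded mRNA libraries of fly heads were processed by the authors with STAR and RSEM on the dm6 build. The submitters' processing notes name these, and no versions are given in the sources used here. The authors deposited 1 table of TPM, a length-scaled measure whose total was the same in every library to within 0.79. TPM hold no counts, so depth is unknown and no counting interval is given. Positions come from Ensembl release 115 (BDGP6, dm6 coordinates), which held 17560 of the 17698 gene identifiers.

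A gene was kept if 24 or more libraries had it at 1 TPM or higher, and log2(TPM + 1) of all 96 libraries was fitted with limma 3.58.1 (trend and robust options, R 4.3.3), with a mean, cosine and sine of period 24 h per group. Rhythm was an F test of the cosine and sine of a group, and the sex difference an F test of their equality. Amplitude and peak time differences used the delta method. P-values were two-sided, with Benjamini-Hochberg adjustment across all 10568 genes kept and called under 0.05. Intervals are 95% intervals. Amplitude was tested for genes rhythmic in either sex and peak time for genes rhythmic in both, each adjusted as if all genes kept had been tested. Peak-time intervals given for other genes, among them rost, tim and per, are only descriptive. The fits were checked on simulated data. Figures used Python 3.11.15 and matplotlib 3.10.9.

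Named genes were the 17 core clock genes, the 20 of lowest p for the sex difference (fewer than 8 passed), the 8 of lowest p for peak time and up to 4 members of lowest p per list. Clock outputs, the amplitude extremes of the shared genes and hll were named after their values were seen. The members, the 25 gene lists and the tests were chosen with earlier results of these data known. Each result was recomputed with another pseudocount, filters, centring, rescaling, day, period, harmonic, covariate, block, fit options and leaving out each library.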

Additional observations from a re-analysis of the deposited data

Results flagged for a closer look

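The sex difference of the rhythm of rost stands here because the test of the difference itself passed in controls, with an adjusted p of 0.0336 from limma. Its fitted peak was CT9.82 in females and CT2.01 in males.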

How the results depend on the processing

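The number of genes with a sex difference in controls, 1 (rost), became 0 without a filter, with median centring, with TPM rescaled without mitochondrially encoded genes and without the 2 low mt:lrRNA female libraries of day 1, the last chosen after seeing the data. It became 2 in the control libraries alone (Fmo-2 and rost), with a period of 23 h and without the trend and robust options (both CR44390 and rost), and 4 with a mean per group and day (CR44390, Fmo-2, Rgk2 and rost). It was 1 in each day alone, but aralar1 on day 1 and CR44390 on day 2. rost passed in 10 of the 15 alternative settings chosen at the outset and in 32 of 48 fits that each left out 1 library (adjusted p from 0.00257 to 0.155). In those 48 fits the sex difference was called in 0 to 4 genes, the female rhythm in 127 to 181, the male rhythm in 104 to 139, and amplitude and peak time in 0. The 9 female libraries whose omission ended the call for rost were those of CT24, 36, 40, 46, 48, 50, 58, 60 and 68, and the 7 male ones those of CT24, 26, 48, 52, 58, 60 and 64.

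The female rhythm count of 169 became 268 in the control libraries alone, 262 with a mean per group and day, 377 with the mt:lrRNA covariate, 84 on day 1 and 102 on day 2. The male count of 133 became 212 with that covariate and 77 on day 1. The peak-time count of 0 became 1 in the control libraries alone (CG10560), 2 with the covariate (CG10560 and rost) and 1 on day 2 (CR44390). In RNAi heads the count of 1 became 2 with centring, the covariate and a period of 23 h, 11 with rescaling, 5 with a mean per group and day, 0 with a period of 25 h, 17 on day 1, 1781 on day 2 and 12 with CT as a block. The causes of these changes were not tested.

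The labels state nothing that libraries of the same CT share beyond the CT. Of 24 female and male pairs, 4 had deviations correlated over 0.1 (median -0.0400, highest 0.426) and 1 correlated best with its own CT. Among control libraries the median log2 level was lowest at CT38 in females (4.07) and also at CT38 in males (4.15). With CT as a replicate block, 1 gene was called in controls (rost, adjusted p = 0.0276), and 362 had an unadjusted p under 0.05. The unadjusted p of tim was 3.81e-05 in that setting, and its adjusted p was 0.101. Of 7985 recomputed values of named genes, 22 lost and 24 gained a call. A reversal was scored only where the gene was called in the main fit or in the other setting, and 0 were found. Since rost alone was called in the main fit, most values could not be scored as reversed, and their direction was not assessed. Since depth is unknown, what it limits cannot be stated.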

Other observations

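A few libraries had high levels of the Imd immune genes. Their summed level had a median of 556 TPM in female controls and reached 15327 TPM in the female library of CT56 and 3808 TPM in that of CT24. In male controls the highest sum was 2139 TPM, at CT54. DptB, an antimicrobial peptide gene, led the female libraries, at 4308 TPM at CT56 and 1311 TPM at CT24.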
